A study of Mus musculus with 15 samples.

Results

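Maturation of the wild-type mouse liver was followed at the level of single chromatin domains, by setting the hepatocyte map of postnatal day 14 (P14) against that of 2-month-old animals. These groups hold 10 of the 15 samples of the series, 5 at each age, and were taken by their labels: genotype Wt, cell type hepatocytes, and age. The P14 group had 3 males and 2 females, and the 2-month group 2 males and 3 females. The remaining 5 samples, P14 animals of genotype Alb-Cre;Ezh1-/-;Ezh2f/f, in which the albumin-driven recombinase deletes Ezh2 in hepatocytes of Ezh1-null mice, are used only for values given side by side. The wild-type groups carried no transgene or treatment according to the labels. No expression was measured, so the cell type could not be checked against marker genes.

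In srHC-seq, crosslinked chromatin is sonicated and the resulting DNA is separated by fragment size. Compact heterochromatin resists sonication and stays in long fragments, while accessible chromatin breaks into short ones. Heterochromatin of the liver is known to hold genes of other lineages silent, and hepatocytes continue to change their expression program for weeks after birth. The deposited calls sort the genome into het (resistant, closed), int (intermediate) and euch (sensitive, open).

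Each age was represented by 1 map that pools its 5 animals, so no difference below has a replicate check, no p-value is given, and the depth behind a call is unknown. The pooling is read from the sample descriptions, in which the entry of 1 female at 2 months lists het and int calls but no euch calls. By the labels, perfusion and lysis volumes and the catheter size differed with age, and these cannot be told apart from age. The autosomes were read as 1236182 bins of 2 kb, and a domain is an unbroken run of bins of 1 class. At P14 the autosomes held 41439 het, 39356 int and 40522 euch domains, and at 2 months 28510, 30824 and 25999. As a length-matched reference, the 2-month map was rotated 200 times along each autosome by at least 5 Mb. A rotation keeps the length and order of all domains and removes their alignment with P14. It also moves long int runs and the regional make-up of classes, so its range reflects more than domain length. The range says nothing of variation between animals. Domains are given by mm9 position. The annotation at hand was of another build, GRCm38, so gene loci and sequences were not analysed here.

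Every P14 domain was followed into the 2-month map. A domain was taken as lost if none of its bins had its class at 2 months, as split if it overlapped at least 2 domains of its class there, and as paired one to one if it and a single 2-month domain overlapped only each other. A 2-month domain was gained if none of its bins had its class at P14, and joined if it overlapped at least 2 P14 domains of its class. Over the 3 classes together, 46.2% of P14 domains were lost, 5.26% were split and 26.7% were paired one to one, while 37.2% of 2-month domains were gained and 12.5% were joined. Int domains made up most of the lost and gained ones, and few of the joined and split ones (177 and 42).

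Of the 41439 het domains of P14, 10867 (26.2%) were lost and 12522 (30.2%) were paired one to one. A further 10105 (24.4%) lay in clusters where several P14 domains met a single 2-month domain. Another 2147 (5.18%) were broken up, each meeting several 2-month domains that met no other P14 het domain. These pieces could reach past the P14 limits. The last 5798 (14.0%) belonged to clusters with several domains at both ages. Of the 40522 euch domains, 13344 (32.9%) were lost, 12732 (31.4%) were paired one to one, 10534 (26%) met others in a single domain, 1202 (2.97%) were broken up, and 2710 (6.69%) lay in mixed clusters. Losses outnumbered gains in both classes. Only 3545 het domains of 2 months (12.4%) and 4745 euch domains (18.3%) were gained, so lost domains outnumbered gained ones 3.07 to 1 for het and 2.81 to 1 for euch. Rotated maps lost 41.2% of het domains on average (16693 to 17406 domains) and 44.6% of euch domains (17686 to 18522). They gained 32.3% of het domains (8929 to 9494) and 35.4% of euch domains (8980 to 9531). The observed losses and gains were below these ranges. Rotated maps thus also lost more domains than they gained, as the P14 map holds more domains, so an excess of losses is not in itself particular to the aligned maps. The ratio of losses to gains was smaller under rotation, with means of 17063 to 9210 for het and 18068 to 9202 for euch. Observed gains were further below rotation (0.385 and 0.516 of its mean) than observed losses (0.637 and 0.739). One-to-one pairs were 1.85 times as frequent as under rotation for het and 2.01 times for euch.

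Fate went with length. Of P14 het domains of 2 kb, 59.8% were lost, of those of 10 to 18 kb 29.6%, of those of 20 to 48 kb 9.26%, and of those of 50 to 98 kb 1.12%. Euch domains went from 54.7% at 2 kb through 38.9% at 10 to 18 kb and 14.7% at 20 to 48 kb to 1.06% at 50 to 98 kb. None of the 463 het and 453 euch domains of at least 200 kb was lost. Below 10 kb, survival was at the level of rotated maps or under it. Het domains of 4 kb were lost in 57.0% of cases, against 48.7 to 54.8% over the rotations, and those of 6 to 8 kb in 48.5%, against 46.4 to 50.5%. Euch domains of 4 kb were lost in 52.8%, against 52.6 to 57.8%. From 10 kb upward the observed losses were lower than in every rotation: het domains of 20 to 48 kb were lost in 35.1 to 38.7% of rotated cases, about 4 times the observed share. Under 10 kb, then, a P14 domain met its own class at 2 months about as often as in a rotated map, and at 4 kb, for het, less often.

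**Figure D1:**
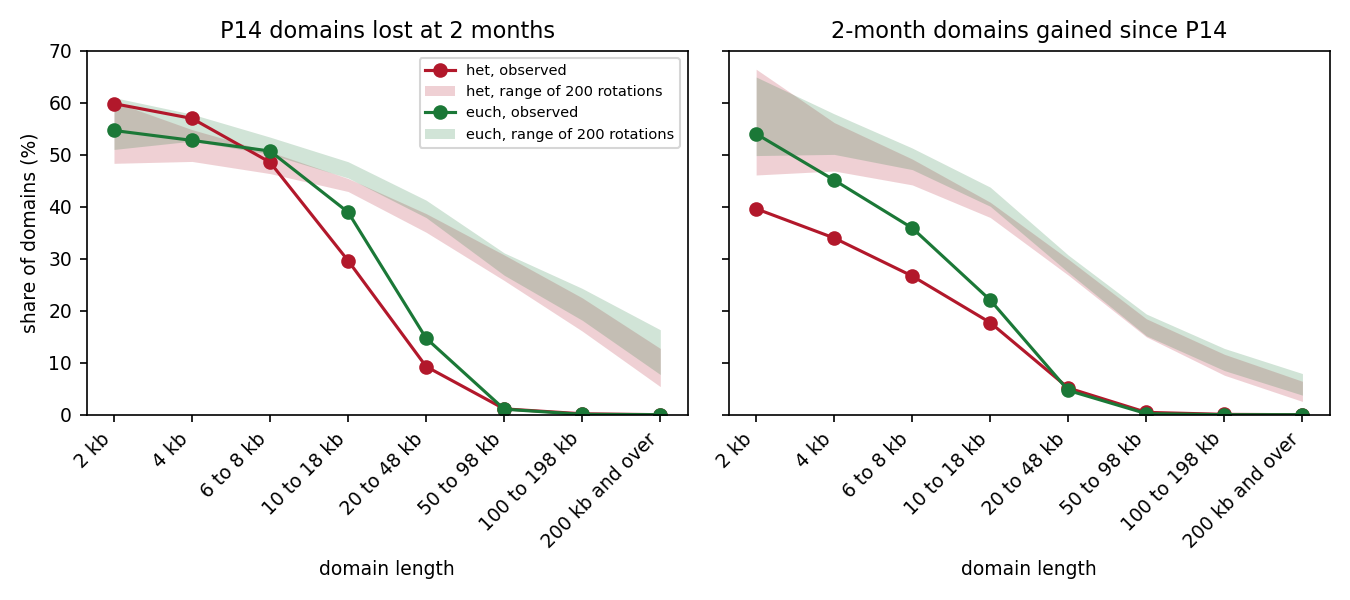
Share of P14 het and euch domains lost at 2 months (left) and of 2-month domains gained since P14 (right), in percent, by domain length. Points are observed values and bands the range of 200 rotations; observed losses of P14 domains under 10 kb lie in or near the bands, and those of longer domains fall well below them.

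Gains did not mirror this. Gained het domains were rarer than in every rotation at each length: 39.6% of 2-month het domains of 2 kb were gained against 46.1 to 66.5% under rotation, and 34.0% of those of 4 kb against 46.9 to 56.2%. Short closed domains of the 2-month liver therefore lay on P14 closed bins more often than in rotated maps. For euch, 54.0% of the 2 kb domains were gained, within the rotation range of 49.8 to 64.95%, and 45.1% of the 4 kb domains, below the range of 50.1 to 57.9%. Gained domains of 100 kb or more numbered 1 for het and 0 for euch.

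Loss also went with the surroundings a domain had at P14. For each domain, the share of its own class among het and euch bins within 500 kb on both sides was taken, leaving out the domain itself. Where that share was under 20%, 56.3% of 2291 het domains and 53.5% of 2369 euch domains were lost. Where it was 70% or more, 12.3% of 7011 het and 11.6% of 6492 euch domains were. The order was the same among domains of a fixed length of 10 to 18 kb. For het the lost share there went from 52.4% to 17.9%, and for euch from 51.7% to 17.6%. Between these ends the classes differed. With 40 to 50% of own class around them, 28.9% of het and 45.1% of euch domains of that length were lost. Open domains in evenly mixed surroundings were thus lost more often than closed ones. Splitting ran the other way, at 3.88% of het and 1.52% of euch domains in the poorest and 13.1% and 11.3% in the richest surroundings. At 10 to 18 kb it went from 0.926% to 2.21% for het and from 0.416% to 1.83% for euch.

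**Figure D2:**
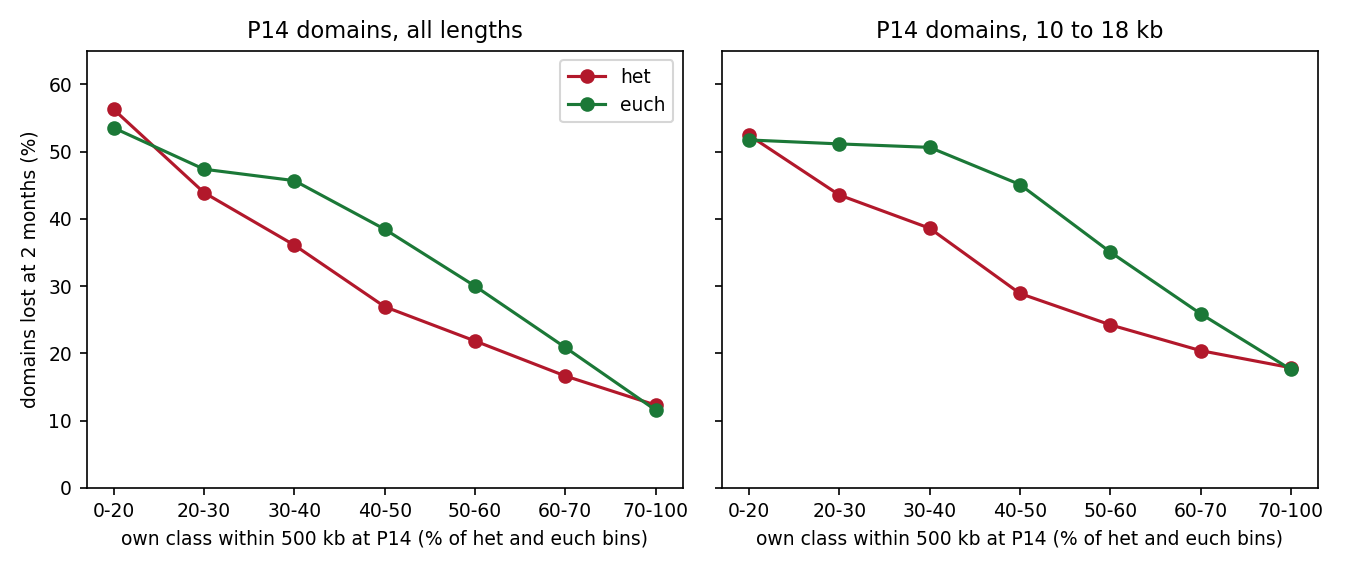
Share of P14 het and euch domains lost at 2 months (percent) against the share of their own class within 500 kb at P14, for all lengths and for domains of 10 to 18 kb. Loss goes from over 50% in surroundings of the other class to under 20% in surroundings of the same class.

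Bins of lost domains were mostly of the opposite class at 2 months, as were most bins outside the class genome-wide. Of the bins in lost het domains, 76.6% were euch and 23.4% int at 2 months, and of those in lost euch domains 82.5% were het and 17.5% int. Of all autosomal bins outside het at 2 months 80.00% were euch, and of all outside euch 81.1% were het. These genome shares count all int, including 28 int domains of at least 200 kb, the longest of 6998 kb. Whether these long runs hold sequence in the build was not tested. The genome shares are therefore not a matched level for the int share of lost domains. For 6454 lost het domains (59.4%) the whole domain lay inside a single euch domain of 2 months, with a median length of 124 kb. For 8607 lost euch domains (64.5%) it lay inside a single het domain, with a median of 102 kb. The lost domains themselves had a median of 8 kb in both classes. Long domains take up more bins, so a short stretch falls into them more readily. No rotation level was computed for these shares and host lengths. Among lost euch domains, 7386 (55.4%) lay inside a het domain that also joined several P14 het domains, and 5670 lost het domains (52.2%) lay inside a joined euch domain. A host that reaches P14 domains of its own class on both sides of the lost one is joined by definition. These shares are therefore no separate result. The P14 euch domains that wholly held a later het domain had a median of 44 kb, and the P14 het domains that held a later euch domain one of 54 kb. These hosts are read in the P14 map, whose het and euch domains had means of 27.1 and 26.1 kb, against 40.1 and 40.9 kb at 2 months. Lost domains touched the opposite class directly on both sides in 34.6% (het) and 30.7% (euch) of cases, against 27.2% and 28.3% of all P14 domains.

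The longest losses exceeded 100 kb. The longest lost het domain, 118 kb on chromosome 11 from 27750001 to 27868000, was euch throughout at 2 months, within a euch domain of 212 kb. On chromosome 8 near its start, 112 kb from 3008001 to 3120000 went from het to 73.2% euch and 26.8% int. A pair of lost het domains lay side by side on chromosome 7, 86 kb from 144108001 to 144194000 and 88 kb from 144210001 to 144298000. They were 93.0% and 95.5% euch at 2 months. The longest gained euch domain, 90 kb from 144218001 to 144308000, covers most of the latter. The fifth-ranked lost het domain was 80 kb on chromosome 2 from 169074001 to 169154000, with 72 kb of euch later. Among lost euch domains the longest was 116 kb on chromosome 5 from 16028001 to 16144000, of which 100 kb was het and 16 kb int at 2 months. It overlaps the longest gained het domain, 104 kb from 16000001 to 16104000. On chromosome 4, 98 kb of euch from 78396001 to 78494000 went to 60 kb of het and 38 kb of int. On chromosome 16, 84 kb from 65340001 to 65424000 lay at 2 months inside a het domain of 154 kb. Other long gains of het were 74 kb on chromosome 10 from 113876001 (81.1% euch at P14) and 66 kb on chromosome 2 from 88706001 (69.7% euch). Long gains of euch were 60 kb on chromosome 10 from 10536001 to 10596000, cut out of a P14 het domain of 62 kb, and 60 kb on chromosome 7 from 132372001 to 132432000.

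Joining was common, at about the level of rotated maps. In all, 5622 het domains of 2 months (19.7%) overlapped at least 2 P14 het domains, and rotations gave 5347 to 5656. For euch there were 4837 (18.6%), slightly above the rotation range of 4444 to 4727. The 824 het domains of at least 200 kb covered a median of 4 P14 het domains, and 81.8% covered at least 2. Rotated long het domains covered medians of 5 to 6, and 87.9 to 93.3% of them covered at least 2. The 1064 long euch domains also covered a median of 4, against 5 to 6, and 90.04% covered at least 2, against 86.7 to 91.8%. Long domains thus covered fewer P14 pieces than rotated ones by the median, and they differed from them in fill. On average 85.9% of a long het domain was het at P14 already, against 46.1% under rotation, and 86.7% of a long euch domain was euch, against 43.0%. The very long domains of the 2-month liver therefore lay where P14 chromatin was already mostly of that class and interrupted by short stretches of others.

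Most joined domains brought together only a pair: 3367 of 5622 for het (59.9%) and 2936 of 4837 for euch (60.7%). At least 10 P14 domains met in 64 het and 18 euch domains. The het domain with the most was 1284 kb on chromosome 3, from 157848001 to 159132000, over 26 P14 het domains. That stretch was 80.5% het, 8.88% int and 10.6% euch at P14. Next were 912 kb on chromosome 8 from 98856001 to 99768000 with 21 P14 domains (69.7% het at P14) and 854 kb on chromosome 1 from 118022001 to 118876000, also with 21 (74.9%). The fourth, 848 kb on chromosome 1 from 175542001 to 176390000 with 20 P14 domains, was only 62.7% het at P14 and 25.0% euch. The euch domain with the most was 1216 kb on chromosome 13, from 101818001 to 103034000, over 15 P14 euch domains and 88.8% euch at P14. A euch domain of 1024 kb on chromosome 19, from 39598001 to 40622000, also covered 15 and was 89.3% euch at P14. On chromosome 4, 594 kb from 135334001 to 135928000 covered 12 and was 77.8% euch, with 82 kb of het that was no longer there at 2 months.

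Splitting was less common than joining and, for euch, well under the rotation level. Of P14 het domains, 4120 (9.94%) overlapped at least 2 het domains of 2 months, where rotations gave 4171 to 4424. Of P14 euch domains, 2224 (5.49%) were split, where rotations gave 3254 to 3482. The median split domain measured 52 kb in both classes. The het domains split into the most were on chromosome 17 from 68688001 to 69224000 (536 kb, 9 domains) and on chromosome 5 from 130812001 to 131116000 (304 kb, 9 domains). In the former, 460 kb was still het, and the breaks were 40 kb of int and 36 kb of euch. A het domain of 270 kb on chromosome 11, from 113064001 to 113334000, broke into 7 and was left with 122 kb of het beside 92 kb of euch. The euch domain split into the most was 366 kb on chromosome 5, from 132678001 to 133044000, which gave 11 euch domains, with 212 kb of euch left beside 104 kb of het. A euch domain of 408 kb on chromosome 9, from 84932001 to 85340000, broke into 7 yet remained 87.7% euch.

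**Figure D3:**
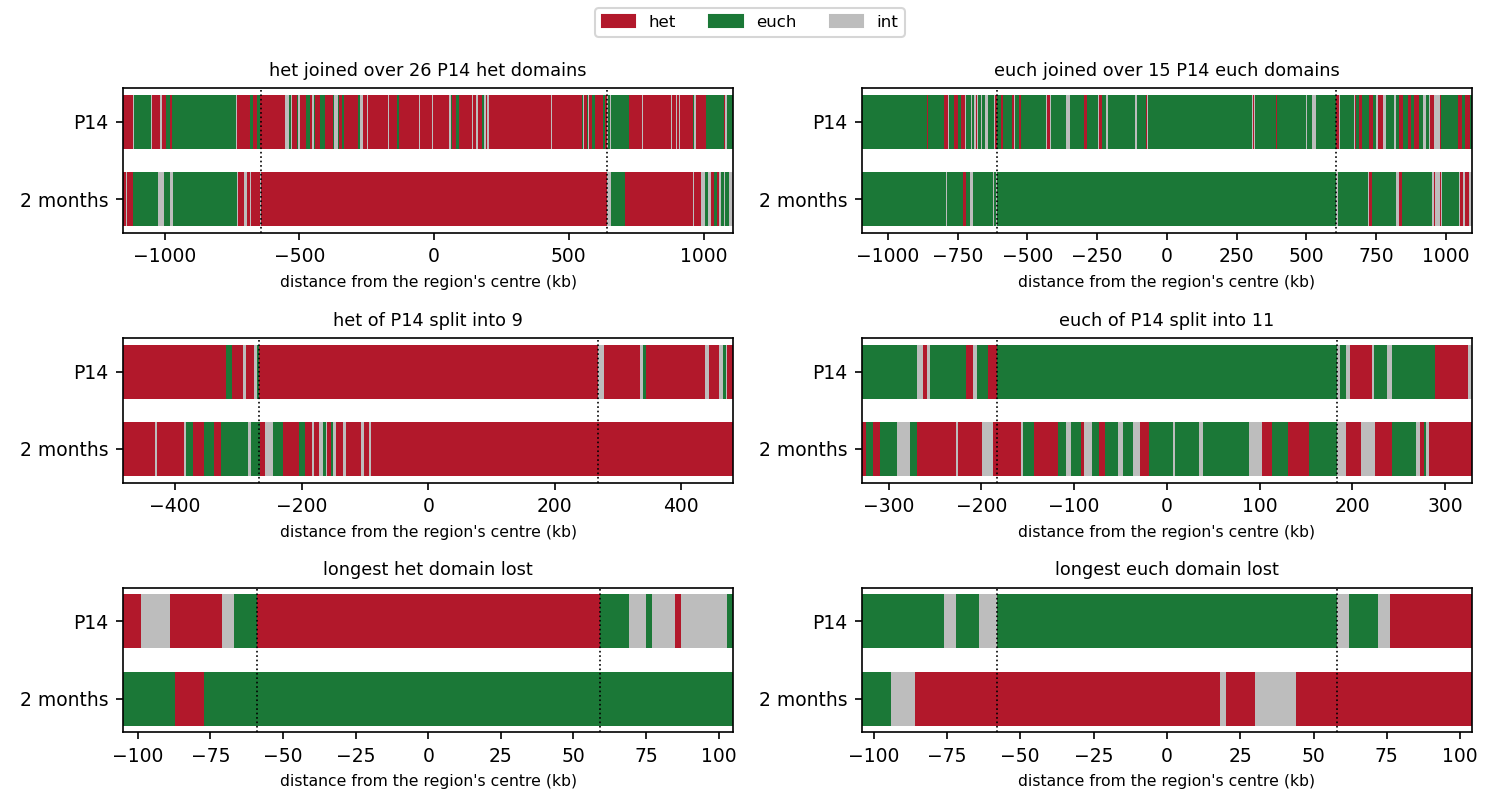
Calls along the first-ranked joined, split and lost domains of het and euch, P14 above and 2 months below, over the domain (between dotted lines) and 40% of its length on each side, as distance from its centre in kb. Joined domains of 1284 kb (het) and 1216 kb (euch) replace alternating P14 calls, and the split P14 domains of 536 and 366 kb are interrupted at 2 months.

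Gaps between neighbouring domains show the same process from the other side. Of 41420 gaps between consecutive P14 het domains, 11379 (27.5%) were het throughout at 2 months, and 8941 of 40503 gaps between euch domains (22.1%) were wholly euch. Gaps that held int alone were filled in 58.1% of cases for het and 51.2% for euch. Gaps that held the opposite class were filled in 20.0% and 15.8%. Length again ordered the outcome. Het gaps of 2 kb were filled in 63.8% of cases, more than in any rotation (42.7 to 49.3%). Those of 20 to 48 kb were filled in 11.3%, fewer than in any rotation (24.1 to 26.6%). Euch gaps had 52.5% at 2 kb (38.9 to 48.5% under rotation) and 6.57% at 20 to 48 kb (24.3 to 27.4%). The classes crossed the rotation level at the same place, between 6 to 8 kb and 10 to 18 kb. Content mattered as well as length: among het gaps of 6 to 8 kb, 58.3% of those with int alone and 38.3% of those holding euch were filled.

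New gaps were fewer. At 2 months 5725 het gaps (20.1% of 28491) lay on bins that had all been het at P14, and 2992 euch gaps (11.5% of 25980) on bins that had all been euch. Both kinds were rarer than under rotation, where 30.4 to 31.6% of het and 28.4 to 29.99% of euch gaps were filled and 25.9 to 27.9% and 22.3 to 24.3% were new. Filled gaps outnumbered new ones 1.99 to 1 in het and 2.99 to 1 in euch, against 1.61 to 1.73 and 1.85 to 2.01 in rotated maps. The ratios were above rotation because new gaps were further below it than filled ones. New gaps had a median of 6 kb and filled gaps of 8 kb in both classes. New gaps were int alone in 69.3% (het) and 68.5% (euch) of cases, while filled gaps had been int alone in only 41.5% and 41.3%.

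**Figure D4:**
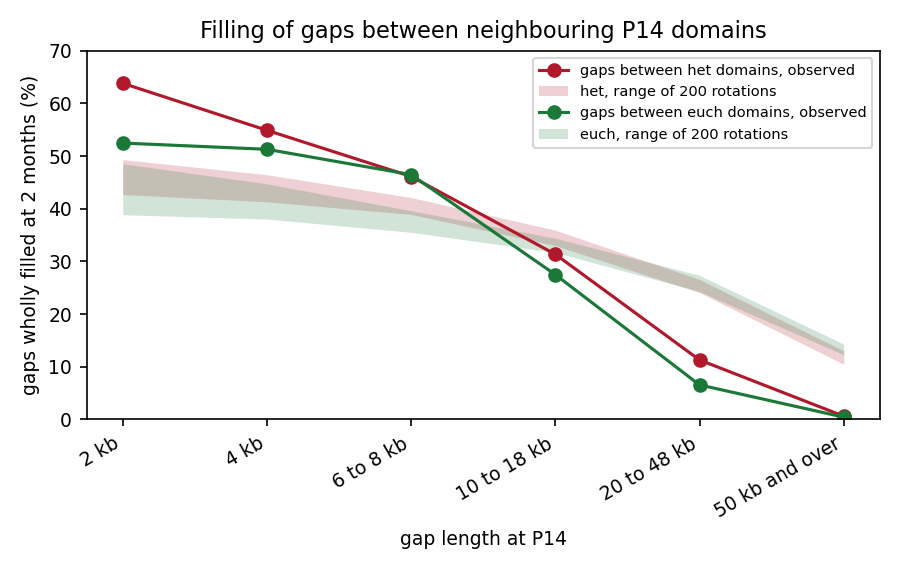
Share of gaps between neighbouring P14 domains of 1 class that were wholly of that class at 2 months (percent), by gap length. Points are observed values and bands the range of 200 rotations; short gaps were filled more often, and gaps of 20 kb or more less often, than in any rotation.

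Edges of domains paired one to one moved little. Of 25044 edges of 12522 het pairs, 23.1% were in the same bin at both ages and 47.8% within 2 kb. Of 25464 edges of 12732 euch pairs, 23.5% and 48.3% were. Rotated maps gave 7.38 to 8.58% and 7.46 to 8.97% in the same bin. Edges that moved did so by a median of 4 kb, where rotated pairs differed by 8 kb, and 12.7% of het and 11.4% of euch edges moved by over 10 kb. The direction differed between the classes. Het edges moved outward in 38.0% and inward in 38.9% of cases, with a mean of -0.0894 kb. In rotated het pairs 47.9 to 50.4% of edges pointed outward and 41.8 to 44.5% inward, so both directions were below rotation here, outward moves by more. Euch edges moved outward in 43.4% and inward in 33.1%, with a mean of 0.488 kb outward, so that 50.7% of paired euch domains were longer and 37.6% shorter at 2 months. In rotated pairs euch edges pointed outward in 45.3 to 47.7% and inward in 44.3 to 46.8% of cases. With more edges in the same bin, both directions were below rotation, inward moves by more.

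**Figure D5:**
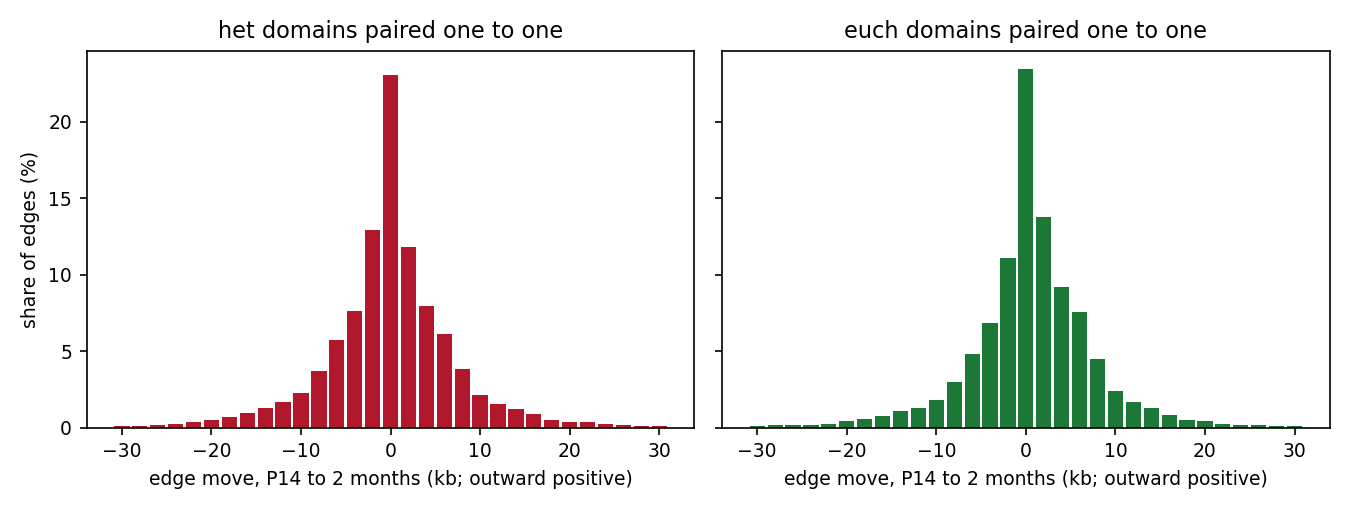
Distribution of edge moves from P14 to 2 months for het and euch domains paired one to one, in kb with outward moves positive, as percent of edges; moves of over 30 kb are not drawn. The central bar, edges in the same bin, holds 23.1% (het) and 23.5% (euch), and the euch distribution leans outward.

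The outward lean of euch edges was widest in long domains. A sort by the length at 1 age favours moves away from it, so domains were sorted by the mean of both lengths. Paired euch domains of 50 to 98 kb then had 56.8% of edges outward and 21.4% inward, those of 100 kb to under 200 kb had 52.9% and 21.2%, and the 77 of at least 200 kb had 58.4% and 17.5%. At 10 to 18 kb the values were 41.6% and 37.5%, and at 20 to 48 kb 47.3% and 34.7%. Long paired het domains showed no such lean, with 41.3% outward and 36.5% inward at 50 to 98 kb and 30.4% and 37.6% from 100 kb to under 200 kb. The longest het pairs, 47 domains of at least 200 kb, kept 40.4% of their edges in the same bin.

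Some of the largest single moves lay next to each other, on chromosomes 7 and 12. Every bin has a class, so where het retreats an adjoining class advances by construction, and such moves are not separate changes. Near the distal end of chromosome 7, the het domain from 151384001 to 151536000 shrank from 152 to 8 kb and the one from 151268001 to 151376000 from 108 to 6 kb. The euch domain between them grew from 4 kb (from 151376001) to 96 kb, the largest growth of any paired euch domain. On chromosome 12 the het domain from 29776001 to 29974000 was cut to 104 kb, its left edge moving inward by 94 kb while its right edge stayed. The adjoining euch domain, from 29758001 to 29776000, grew from 18 to 100 kb. The largest growth of a paired het domain was on chromosome 5, where 8 kb from 41488001 became 94 kb, from 41464001 to 41558000. The largest shrinkage of a euch domain was at the distal end of chromosome 13, whose calls end at 120.286 Mb. There 172 kb from 120106001 to 120278000 went to 10 kb, with 162 kb of int rather than het in its place. On chromosome 14, 132 kb of euch from 108376001 to 108508000 went to 12 kb beside 114 kb of het.

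Edges as such were reused well above rotation. Of 57020 het edges at 2 months, 15.2% lay in the bin of a P14 het edge of the same side and 63.6% within 10 kb of one, against at most 3.55% and 35.8% in any rotation. For 51998 euch edges the shares were 16.5% and 66.2%, against at most 3.46% and 35.1%. Edges of int were reused least, with 7.19% in the same bin, against at most 3.46%.

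Intermediate calls had the highest share of lost domains, but rotated maps lost most of them too. Of 39356 int domains of P14, 31822 (80.9%) held no int bin at 2 months, below the 33119 to 33612 of rotated maps. One-to-one pairs numbered 7133, where rotations gave 4319 to 4643. Int domains of 4 kb were lost in 83.7% of cases, against 85.7 to 87.6% under rotation. Those of 6 to 8 kb were lost in 79.7%, against 82.6 to 84.6%. Relative to rotation, int was thus not the least persistent class at these lengths. Of 30824 int domains at 2 months, 23432 (76.0%) were gained, where rotations gave 24991 to 25367. The median int domain was 4 kb at both ages. Int between a het and a euch domain, the transition between both states, made up 23987 domains at P14 and 13229 at 2 months, while int enclosed by het made up 8123 and 10036 and int enclosed by euch 7208 and 7521. The lower number of int domains thus lay in the transitions, not in enclosed int. Direct contacts of het with euch numbered 42624 and 23704, which is 64.0% and 64.2% of all such borders, so the make-up of a border was alike at both ages. P14 int bins enclosed by euch were 54.5% euch, 16.2% int and 29.3% het at 2 months, and those enclosed by het were 46.9% het, 36.9% int and 16.2% euch. These shares are by bin, so a few long int runs can weigh heavily in them. None of the 28 P14 int domains of at least 200 kb was lost, while enclosed int had medians of 4 kb (het) and 6 kb (euch). The longest int domain measured 6998 kb in all 3 maps. Every bin carries a class, so stretches without sequence in the build would be called too. Whether the long int runs are such stretches, rather than lasting intermediate chromatin, was not tested. Nor was it counted how many of these runs are enclosed. Shares without the long runs were not computed, so the int shares do not rank the persistence of typical enclosed domains.

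Domain loss followed opposite orders across chromosomes. Lost het domains ran from 21.6% on chromosome 1 to 39.8% on chromosome 19, and lost euch domains from 13.9% on chromosome 19 to 40.1% on chromosome 1. Chromosome 11 had the next highest het loss, 32.7%, and the next lowest euch loss, 21.4%. Chromosome 14 had the next highest euch loss, 39.1%, and one of the lower het losses, 23.6%. Chromosome 19 was the only autosome with more gained than lost euch domains, 187 against 134, and it lost 383 het domains while gaining 38. Chromosome 3 lost 1074 euch domains and gained 242. The number of domains, unlike the direction of loss, was lower at 2 months on all 19 autosomes, by 25.4% (chromosome 16) to 36.9% (chromosome 6) for het and by 23.8% (chromosome 19) to 41.7% (chromosome 12) for euch. On chromosome X, left out of the main values because the sexes were unequally mixed, the numbers were 17.3% lower for het and 19% lower for euch, less than on any autosome.

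Some stretches of 1 Mb lost domains of 1 class almost exclusively. Over 2401 windows, 2122 (88.4%) held fewer het and euch domains at 2 months and 212 held more. A window lost a median of 4 het and 3 euch domains, but up to 21 and 30. Windows that lost many of one class lost few of the other (Pearson r = -0.533, Spearman rho -0.570, a description over neighbouring windows of the same pair of maps, which are not replicates). The 4 windows with the most lost euch domains had 30 each. On chromosome 13 from 26000001 to 27000000, all 30 P14 euch domains were lost, none was gained and no het domain was lost. The het share went from 45.2% to 88.4% and the euch share from 36.8% to 0%. On chromosome 2 from 96000001, 32 euch domains went to 2 and the euch share from 44.4% to 1.80%. Chromosome 3 from 140000001 went from 33 euch domains to 3, and chromosome 8 from 51000001 from 32 to 7. In the opposite direction, chromosome 18 from 75000001 to 76000000 lost 21 het domains and 1 euch domain, with 25 het domains at P14 and 5 at 2 months. Its het share went from 36.8% to 5.4% and its euch share from 48.4% to 88.0%. Chromosome 8 from 118000001 lost 20 het domains and went from 42.2% to 82.0% euch. Chromosome 16 from 11000001 lost 19, with 22 het domains at P14 and 3 at 2 months. In these windows the P14 map alternated between both classes, with 18 to 33 euch domains per Mb, and in the 2-month map a single class covered 72.2 to 92.4% of each of the 10 windows. The windows were picked for the most losses of 1 class, which needs many P14 domains of it. This pattern therefore follows in large part from the choice, and the same values over all windows are not given here.

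The P14 knockout map shares the P14 wild-type map as its control, so its values stand here side by side without a comparison of effects. Against that map, the knockout lost 7493 het (18.1%) and 9495 euch domains (23.4%) and gained 5701 (15% of its own) and 6705 (18.5%). With age the losses were 26.2% and 32.9%, and the gains 12.4% and 18.3%. One-to-one pairs were 43.2% of het and 46.3% of euch domains in the knockout, against 30.2% and 31.4% with age. Euch edges of paired domains moved outward in 37.2% and inward in 34.9% of cases in the knockout, against 43.4% and 33.1% with age. The 5 longest het domains lost with age were 57.5% to 94.6% het in the knockout. Of the 5 longest lost euch domains, those on chromosomes 16 and 2 were 76.2% and 97.2% het in the knockout, and those on chromosomes 5 and 4 were 77.6% and 75.5% euch. The fifth, on chromosome 12, was 37.1% euch and 25.7% het there.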

How the data were processed

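Deposited lists of het, int and euch intervals of P14 and 2-month wild-type hepatocytes were used, with those of the P14 knockout beside them. The submitters' processing notes name bcl2fastq 2.19.0.316, STAR 2.4.2a, bedtools and build mm9. The domain caller, its thresholds and its scaling are not given in the sources used here. In the deposited files the score is 0 throughout. Other deposited columns are interval positions. Within each group the lists filled every 2 kb bin of the autosomes and X once. Bins that hold no sequence in the build, if any, thus also carry a class, and they were not sought out or removed.

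Overlaps, edges and gaps were computed with Python 3.11.15, NumPy 2.4.6 and SciPy 1.17.1, and drawn with Matplotlib 3.10.9. Fates needed an overlap of 1 bin. Coordinates are 1-based. The fate procedure was tested on made-up maps and passed all 13 checks. Named regions are the first 5 of each kind by number, length or change of length, and the 5 windows of 1 Mb with most losses of each class. Members and measures were chosen with earlier results of these data known. Loss by surroundings, edge reuse, long domains, new gaps, int by its flanks, rotation levels of edges and gaps, and the sort by mean length were added after the maps had been compared. Windows with over 50% of bins in int runs of at least 100 kb shared by all 3 maps were left out. Gene loci were planned but not analysed here for want of an mm9 annotation.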

Additional observations from a re-analysis of the deposited data

How the results depend on the processing

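Of 250 recomputed values, 238 kept within 1.5 times the main count, or within its interval. Most of the 250 only leave out a single autosome and could not move by that factor, so the tally does not measure robustness. The interval, at the 95% level, was applied to edge shares of 1 pair of pooled maps and does not cover variation between animals. All values that moved are given next. Giving int between domains of one class that class left 2044 gained het and 3159 gained euch domains, and 2138 split het and 1377 split euch domains. An overlap of at least 50% of the shorter domain left 2636 split het and 1451 split euch domains. Filling at least 50% of a gap counted 17387 het and 13542 euch gaps. Edges in the same bin were 22.5% (het) and 22.3% (euch) for domains of at least 10 kb at both ages, and 21.4% and 21.9% with domains under 6 kb reassigned. Lost domains outnumbered gained ones in both classes under every alternative listed here, with chromosome X added, and with shared int runs left out, which changes no het or euch domain by construction. Leaving out single autosomes kept all counts of fates within 1.5 times, a limit that no single autosome is large enough to pass. Rotations of at least 1 Mb gave means of 5504 joined het and 4607 joined euch domains, and rotations without shared int runs, added after seeing the data, 5664 and 4744. By these last means, joining of het was slightly under the rotation level (5622 observed). Rotations without shared int runs lost means of 16306 het and 17405 euch domains and gained 8606 and 8699. The observed losses and gains were below these means as well. No paired analysis was possible because each map pools the animals of its group, so that leaving out single animals could not be tried either.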
